A study of Mus musculus with 6 samples.

Results

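Neurofilaments and related neuronal intermediate filaments are assembled from 5 subunit genes, *Nefl*, *Nefm*, *Nefh*, *Ina* and *Prph*, and their transcript levels were compared between *Mll1KO* and WT mouse retina by RNAseq. The genes were chosen by symbol, and all 5 of 5 stood among the 11339 genes of the deposited table. The samples were 3 *Mll1KO* and 3 WT retina preparations at P14, lettered a to c, each pooled from a pair of retinas. *Mll1KO* mice carried MLL1 fl/fl with Chx10-Cre, which acts in retinal progenitors, and WT mice were wild type; both groups were of strain C57Bl6/J. Since WT mice had neither Cre nor floxed alleles, loss of *Mll1* and the presence of Cre or floxed alleles cannot be told apart. The libraries held 17961097 to 23836033 reads, and levels are given as RPKM, reads scaled to exon length in kilobases and to library size. The study's methods call the 3 samples of a group biological replicates, and p-values measure the spread between them.

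Intermediate filaments give axons their calibre and mechanical strength. The light (*Nefl*), medium (*Nefm*) and heavy (*Nefh*) neurofilament chains and alpha-internexin (*Ina*) copolymerise in central neurons, with the light chain needed for assembly and the long, heavily phosphorylated tails of the medium and heavy chains projecting from the filament. Peripherin (*Prph*) is best known from peripheral neurons and from a subset of central neurons; in the mouse retina, neurofilament proteins mark ganglion cell axons and horizontal cells.

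The targeted gene was examined first. *Kmt2a*, the current symbol of *Mll1*, had an RPKM of 36.1, 36.9 and 34.6 in WT a, b and c, and of 22.9, 20.4 and 22.3 in *Mll1KO* a, b and c. All 3 *Mll1KO* libraries lay below all 3 WT libraries, as their labels say, although the value sums all exons and does not separate the floxed ones. The log2 fold change was -0.69 (SE 0.05, limma adjusted p = 2.77e-05). Fold changes are differences of mean log2(RPKM + 1), *Mll1KO* minus WT, and a gene is called at an adjusted p below 0.05 (limma, Benjamini-Hochberg over all genes).

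Of the 5 filament genes, *Nefl*, *Nefm*, *Nefh* and *Ina* were called lower in *Mll1KO* (4 of 5) and *Prph* was not called; the same 4 were lower under every scaling tried, *Prph* was called lower only when the rod gene sum was made equal in all libraries, a scaling with which 9590 of the 11339 genes were. Over all 11339 genes, 23.3% were called in either direction, 14.5% lower and 8.81% higher. In retina, fewer neurons that contain these filaments and less RNA per neuron cannot be told apart.

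*Nefl*, the light chain (ENSMUSG00000022055), had an RPKM of 97.5, 92.6 and 99.0 in WT a, b and c, and of 73.4, 64.9 and 62.1 in *Mll1KO* a, b and c. Every *Mll1KO* library was below every WT library, and the gap between the groups was wider than the range within either. The means were 96.4 ± 3.32 in WT and 66.8 ± 5.90 in *Mll1KO* (SD, n = 3 each), 30.7% lower. The log2 fold change was -0.53 (SE 0.06, limma adjusted p = 0.000324; 95% interval -0.66 to -0.39).

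*Nefm*, the medium chain (ENSMUSG00000022054), had an RPKM of 69.6, 70.2 and 71.5 in WT and of 55.3, 46.4 and 44.7 in *Mll1KO* a, b and c. WT libraries were nearly equal, and *Mll1KO* a was the highest of its group, as for *Nefl*. The means were 70.4 ± 0.976 and 48.8 ± 5.73 (SD, n = 3 each), and the 95% interval of the log2 fold change ran from -0.68 to -0.37, which holds the value of *Nefl*.

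*Nefh*, the heavy chain (ENSMUSG00000020396), had an RPKM of 42.0, 41.2 and 42.4 in WT and of 35.7, 32.3 and 34.4 in *Mll1KO* a, b and c. The groups did not overlap, but the distance between them was smaller than for the light and medium chains. Means of 41.9 ± 0.597 and 34.1 ± 1.72 (SD, n = 3 each) gave a level 18.5% lower in *Mll1KO* and a log2 fold change of -0.29 (SE 0.04, limma adjusted p = 0.00163; 95% interval -0.39 to -0.19).

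*Ina*, alpha-internexin (ENSMUSG00000034336), had an RPKM of 70.8, 68.7 and 71.3 in WT and of 60.9, 53.0 and 55.4 in *Mll1KO* a, b and c. Again no *Mll1KO* library reached the WT range, and *Mll1KO* a was the nearest to it. The means were 70.3 ± 1.36 and 56.4 ± 4.04 (SD, n = 3 each), 19.7% lower in *Mll1KO*, with a log2 fold change of -0.31 (SE 0.05, limma adjusted p = 0.00233; 95% interval -0.43 to -0.20).

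*Prph*, peripherin (ENSMUSG00000023484), was an order of magnitude below the others, with an RPKM of 4.66, 4.23 and 5.33 in WT and of 5.81, 3.83 and 4.09 in *Mll1KO* a, b and c. The groups overlapped, and the highest value of all 6 was that of *Mll1KO* a, while *Mll1KO* b and c were below every WT library. The means were 4.74 ± 0.554 and 4.58 ± 1.07 (SD, n = 3 each), and the log2 fold change was -0.05 (SE 0.12, limma adjusted p = 0.791). Its 95% interval, -0.33 to 0.22, holds a decrease as large as that of *Nefh*, which is therefore not excluded. *Prph* had 137 to 253 reads per library against at least 2466 of each other subunit, and whether depth widened its interval was not tested. Without *Mll1KO* a the estimate was -0.21 (limma adjusted p = 0.112), and it turned positive without WT c (0.02), *Mll1KO* b (0.04) or *Mll1KO* c (0.004); the direction for *Prph* therefore rested on single libraries.

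**Figure D1:**
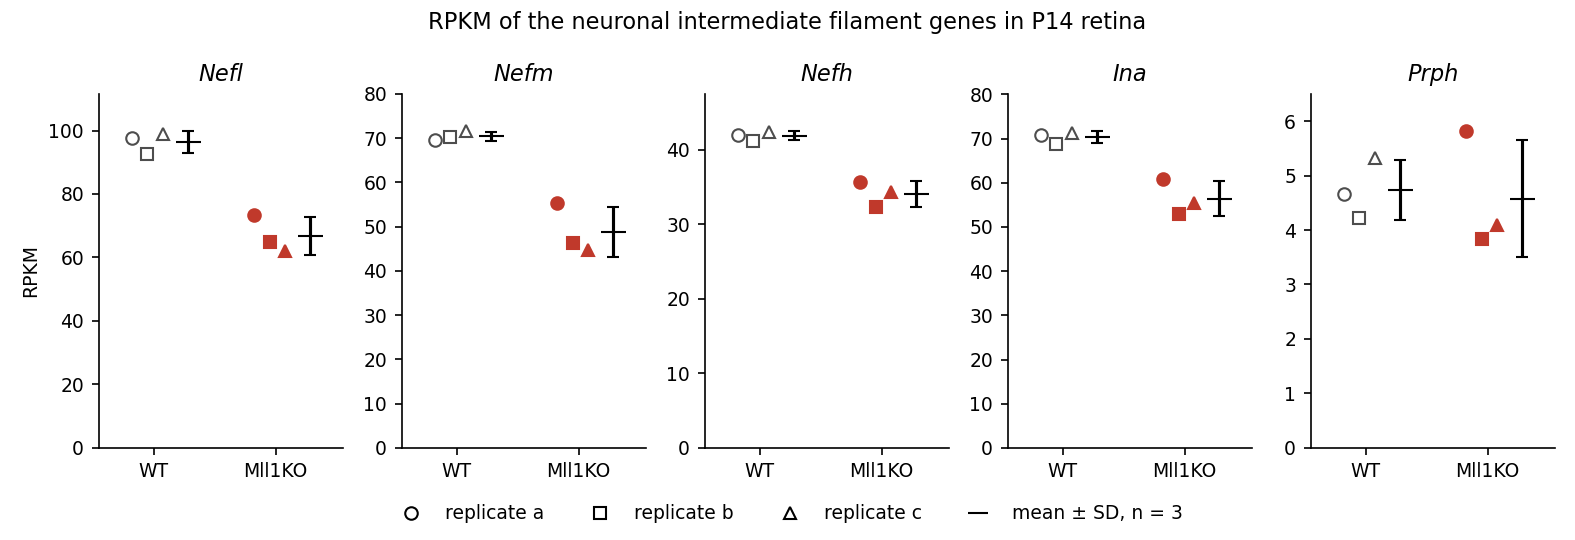
RPKM (vertical axis, from 0, a separate scale for each gene) of *Nefl*, *Nefm*, *Nefh*, *Ina* and *Prph* in the 3 WT (open grey symbols) and 3 *Mll1KO* (filled red symbols) libraries, with symbol shape for replicate letter and bars for mean ± SD. The groups are apart for the first 4 genes, such as 92.6 to 99.0 against 62.1 to 73.4 for *Nefl*, and overlap for *Prph*.

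Non-overlap in the lower direction was seen for 4 of 5 filament genes and for 26.5% of all genes. By level per length, WT retina held most *Nefl*, then *Nefm* and *Ina*, then *Nefh*, and least *Prph*. *Nefm* and *Ina* were not separable in WT, where their means differed by less than 1 SD of either. In *Mll1KO* the order was *Nefl*, *Ina*, *Nefm*, *Nefh* and *Prph*. Here *Ina* was above *Nefm* in each library, though the SDs of the 2 genes overlapped. In WT, the 4 larger subunits ranked between the 90.8th percentile (*Nefh*) and the 97.4th percentile (*Nefl*) of all genes by mean RPKM, and *Prph* ranked at the 24.8th.

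The subunit composition was then compared through the ratio of RPKM values within each library, which does not depend on how libraries are scaled. Ratios were formed for all 10 pairs, which share 5 genes and so are not independent. With 3 against 3 samples the exact permutation test cannot go below 0.1, so no ratio could pass a threshold of 0.05; the smallest p adjusted by Benjamini-Hochberg over the 10 ratios was 0.167.

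The medium to light chain ratio was 0.713, 0.758 and 0.722 in WT and 0.754, 0.714 and 0.720 in *Mll1KO*. The groups covered the same range, so *Nefm* and *Nefl* were lower in proportion to each other. The mean log2 ratio differed by -0.004 (two-sided exact permutation p = 0.8). *Nefh* and *Ina* likewise kept a close ratio, 1.68, 1.67 and 1.68 of *Ina* to *Nefh* in WT and 1.71, 1.64 and 1.61 in *Mll1KO*. The difference of -0.02 in log2 was within the *Mll1KO* spread (SD 0.04, two-sided exact permutation p = 0.4).

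Ratios across these pairs moved. *Nefh* to *Nefl* was 0.431, 0.445 and 0.428 in WT and 0.486, 0.497 and 0.554 in *Mll1KO*. Every *Mll1KO* ratio was above every WT ratio, a mean log2 difference of 0.24 against SDs of 0.03 in WT and 0.10 in *Mll1KO* (two-sided exact permutation p = 0.1, the smallest possible). *Ina* to *Nefl* was 0.725, 0.742 and 0.721 in WT and 0.829, 0.816 and 0.893 in *Mll1KO*. That is a log2 difference of 0.21, again without overlap (exact permutation p = 0.1). *Nefh* to *Nefm* rose in all 3 *Mll1KO* libraries over all 3 WT libraries by 0.24, and *Ina* to *Nefm* by 0.22 in log2 (exact permutation p = 0.1 each). Light and medium chain transcripts were thus lower by more than heavy chain and alpha-internexin transcripts in these libraries.

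*Prph* to *Nefl* was 0.0477, 0.0457 and 0.0538 in WT and 0.0792, 0.0591 and 0.0659 in *Mll1KO*. The *Mll1KO* ratios were all higher, by 0.46 in log2 on average (exact permutation p = 0.1), and the *Prph* to *Nefm* ratios by 0.47 (exact permutation p = 0.1). Against *Nefh* and *Ina*, the *Prph* ratios overlapped between groups, with differences of 0.23 and 0.25 (exact permutation p = 0.3 each).

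**Figure D2:**
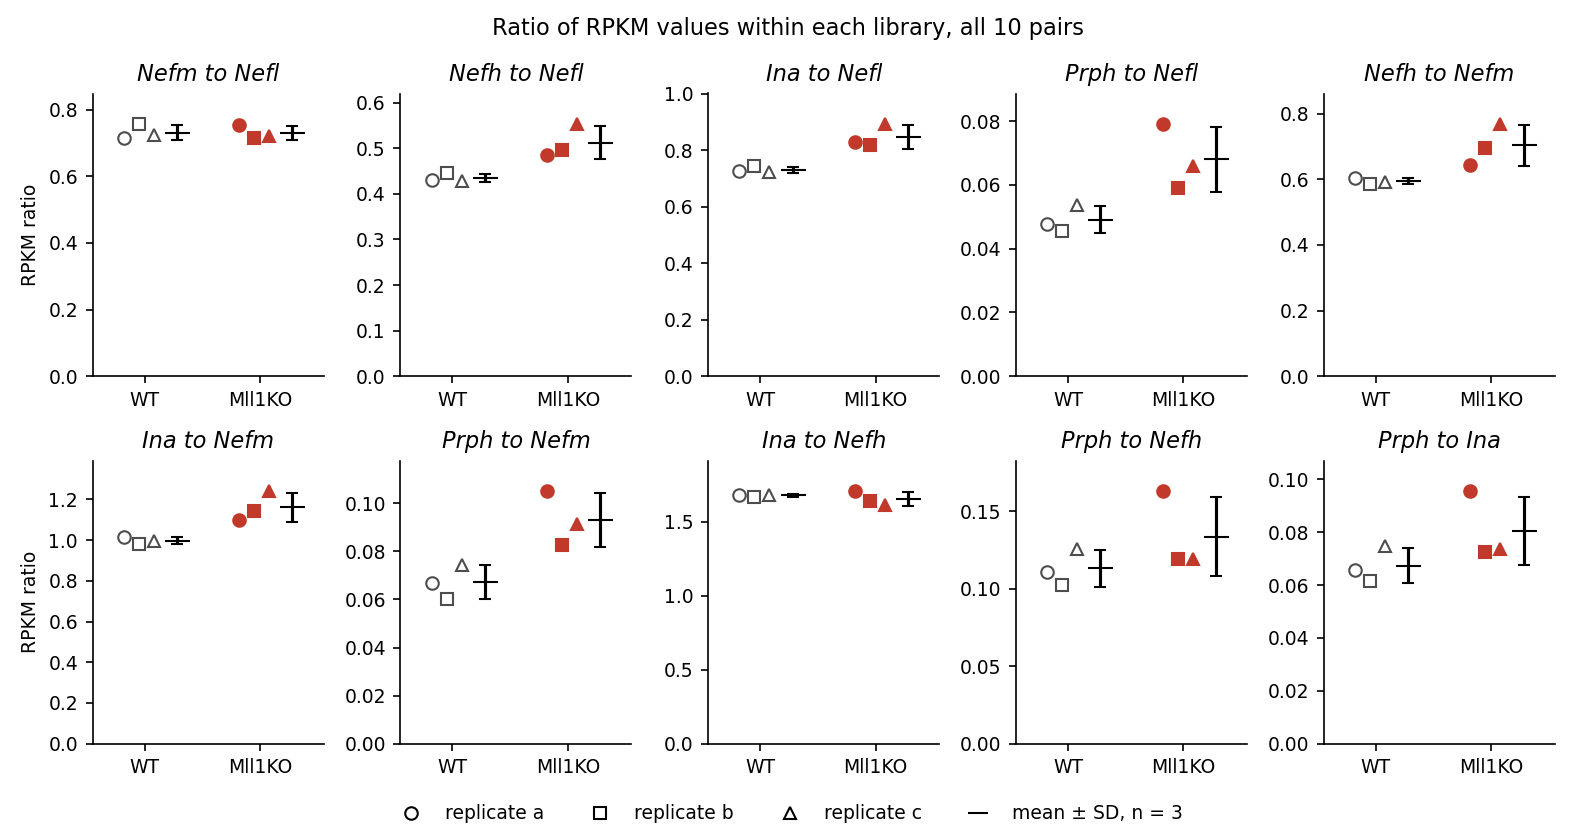
Ratio of RPKM values (vertical axis, no unit, from 0) within each of the 3 WT (open grey) and 3 *Mll1KO* (filled red) libraries for all 10 pairs of filament genes, with bars for mean ± SD. *Nefm* to *Nefl* (0.713 to 0.758) covers the same range in both groups, whereas *Nefh* to *Nefl* lies at 0.428 to 0.445 in WT and 0.486 to 0.554 in *Mll1KO*.

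Summed over the 5 genes, the RPKM was 285, 277 and 289 in WT a, b and c and 231, 200.4 and 200.6 in *Mll1KO* a, b and c. All *Mll1KO* sums were lower, with means of 284 ± 6.29 and 211 ± 17.7 (SD, n = 3 each), 25.7% lower. *Nefl* made up 34.3%, 33.4% and 34.2% of this sum in WT and 31.8%, 32.4% and 30.9% in *Mll1KO*. *Ina* made up 24.9%, 24.8% and 24.6% in WT and 26.3%, 26.4% and 27.6% in *Mll1KO*. The light chain thus took a smaller share and alpha-internexin a larger one, with shares of 14.8% and 16.2% on average for *Nefh*, 24.8% and 23.1% for *Nefm*, and 1.67% and 2.16% for *Prph*, in WT and *Mll1KO*.

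The levels of *Nefl* and *Nefm* carry a limit from the annotation. In GENCODE vM21 (GRCm38) *Nefl* lies on chromosome 14 from 68083863 to 68089095 on the plus strand, with 4 exons, and *Nefm* from 68082590 to 68124846 on the minus strand. The second *Nefm* transcript has a far exon that covers 1108 bases of *Nefl* exon sequence, from 68083863 to 68084970, on the opposite strand. These bases are 32.8% of the *Nefl* and 19.2% of the *Nefm* exon bases. Whether reads were counted by strand is not given in the sources used here, so reads of the 2 genes in these bases cannot be told apart. The length behind the deposited *Nefm* RPKM, 5782 bases, includes the far exon, whereas the coding transcript with the longest coding sequence has 3334.

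Dividing the same reads by only the coding transcript bases that lie in no other gene, a choice made after the data were seen, gave *Nefm* a mean of 122 ± 1.69 in WT and 84.6 ± 9.93 in *Mll1KO*, and *Nefl* 143 ± 4.94 and 99.4 ± 8.77 (SD, n = 3 each). All counted reads were kept, including any from the bases left out, so these levels and the shares below can be too high. On this scale *Nefm* was above *Ina* (81.8 ± 1.58 in WT), so the order of these 2 genes depends on the length used. The genotype comparison of each gene does not, since a length divides all libraries alike. The shares of *Nefm* in WT became 31.0% and of *Nefl* 36.4%.

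*Ina* (chromosome 19, 47014698 to 47025327, plus strand, 3 exons) shares 456 bases, 14.1% of its exon bases, with the antisense gene *Nt5c2*, which was not called (log2 fold change 0.10, SE 0.06, limma adjusted p = 0.220). *Nefh* (chromosome 11, 4938754 to 4948064, minus strand, 4 exons) and *Prph* (chromosome 15, 99055174 to 99058978, plus strand) share no exon base with another gene. No stretch of 50 bases in *Nefh* or *Prph* transcripts recurs in the transcripts of another gene. Among listed neighbours that do not overlap, *Thoc5*, next to *Nefh*, was called higher (0.32, SE 0.06, limma adjusted p = 0.00586). *Ap1b1* on the other side of *Nefh* (0.02), *Pcgf6* (-0.15) and *Cnnm2* (-0.001) beside *Ina*, and *Dock5* (0.14) beside the *Nefl* and *Nefm* locus were not called. *Tuba1c* and *Troap* beside *Prph* and *Adam7* beside *Nefm* were not in the table.

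**Figure D3:**
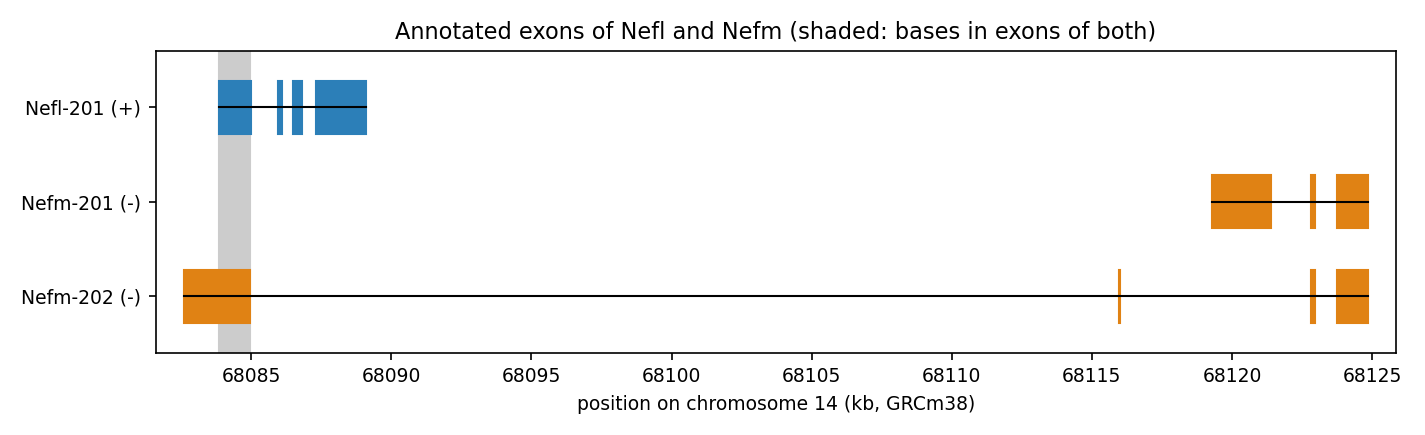
Annotated exons (boxes, to scale) of the *Nefl* transcript (blue, plus strand) and both *Nefm* transcripts (orange, minus strand) along chromosome 14 (horizontal axis, kb, GRCm38). The shaded band marks the 1108 bases, 68083863 to 68084970, that lie in exons of both genes.

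Ganglion cell and horizontal cell markers were lower in the same libraries. Of 18 ganglion cell markers, 15 were listed, 11 of them called lower and 0 higher (median log2 fold change -0.47, against -0.03 over all genes). *Pou4f3*, *Isl2* and *Atoh7* were not listed. Their summed RPKM was 554, 513 and 542 in WT and 440.4, 406 and 372 in *Mll1KO* a, b and c, with *Sncg* the most abundant. Of 10 horizontal cell markers, 8 were listed and 7 called lower (median -0.45), with sums of 143, 147 and 143 in WT and 98.9, 102 and 106 in *Mll1KO*, and *Sept4* the most abundant. *Lhx1* and *Gja10* were not listed. The study's antibody list gives Prox1 and calbindin also for amacrine cells, and Sall3 and Onecut 1 also for cones. The list is thus not specific to horizontal cells. The part of either marker list in the lower filament levels was not tested.

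Each filament gene was therefore also expressed relative to these markers, as its log2 RPKM minus the mean log2 RPKM of the list in the same library. The markers were themselves lower, so a gene with no change would stand higher in *Mll1KO* on this scale. The geometric mean RPKM of the ganglion cell list was 19.1, 18.2 and 19.1 in WT and 14.2, 13.0 and 12.3 in *Mll1KO*. That of the horizontal cell list was 8.25, 8.17 and 7.85 in WT and 5.26, 5.23 and 5.28 in *Mll1KO*. *Nefl* relative to the ganglion cell markers was 2.35, 2.34 and 2.37 in WT and 2.37, 2.32 and 2.34 in *Mll1KO*. The 6 values were close together, and the means differed by -0.01 (two-sided exact permutation p = 0.5). *Nefm* stood at 1.87, 1.94 and 1.90 in WT and 1.97, 1.83 and 1.86 in *Mll1KO*, a difference of -0.02 with overlapping groups (exact permutation p = 0.7). The light and medium chains were thus about as much lower as the mean of the ganglion cell markers, although against the median of the markers they stood higher by 0.17 each.

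*Ina* relative to the same markers was 1.89, 1.91 and 1.90 in WT and 2.10, 2.03 and 2.18 in *Mll1KO*. All *Mll1KO* values were above WT, by 0.20 on average (exact permutation p = 0.1, the smallest possible). *Nefh* was higher by 0.22 and *Prph* by 0.45, also without overlap (exact permutation p = 0.1 each). Relative to the horizontal cell markers, *Nefl* and *Nefm* overlapped between groups (differences of 0.09 each, exact permutation p = 0.5 and 0.6), and the sign of both turned with the median of the markers (-0.036 and -0.040) and with their summed RPKM (-0.033 and -0.037). *Nefh*, *Ina* and *Prph* were higher in every *Mll1KO* library than in every WT library, by 0.33, 0.30 and 0.55 (exact permutation p = 0.1 each). For both lists these values mean a smaller decrease than the marker mean, or none called for *Prph*, and not a higher level.

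**Figure D4:**
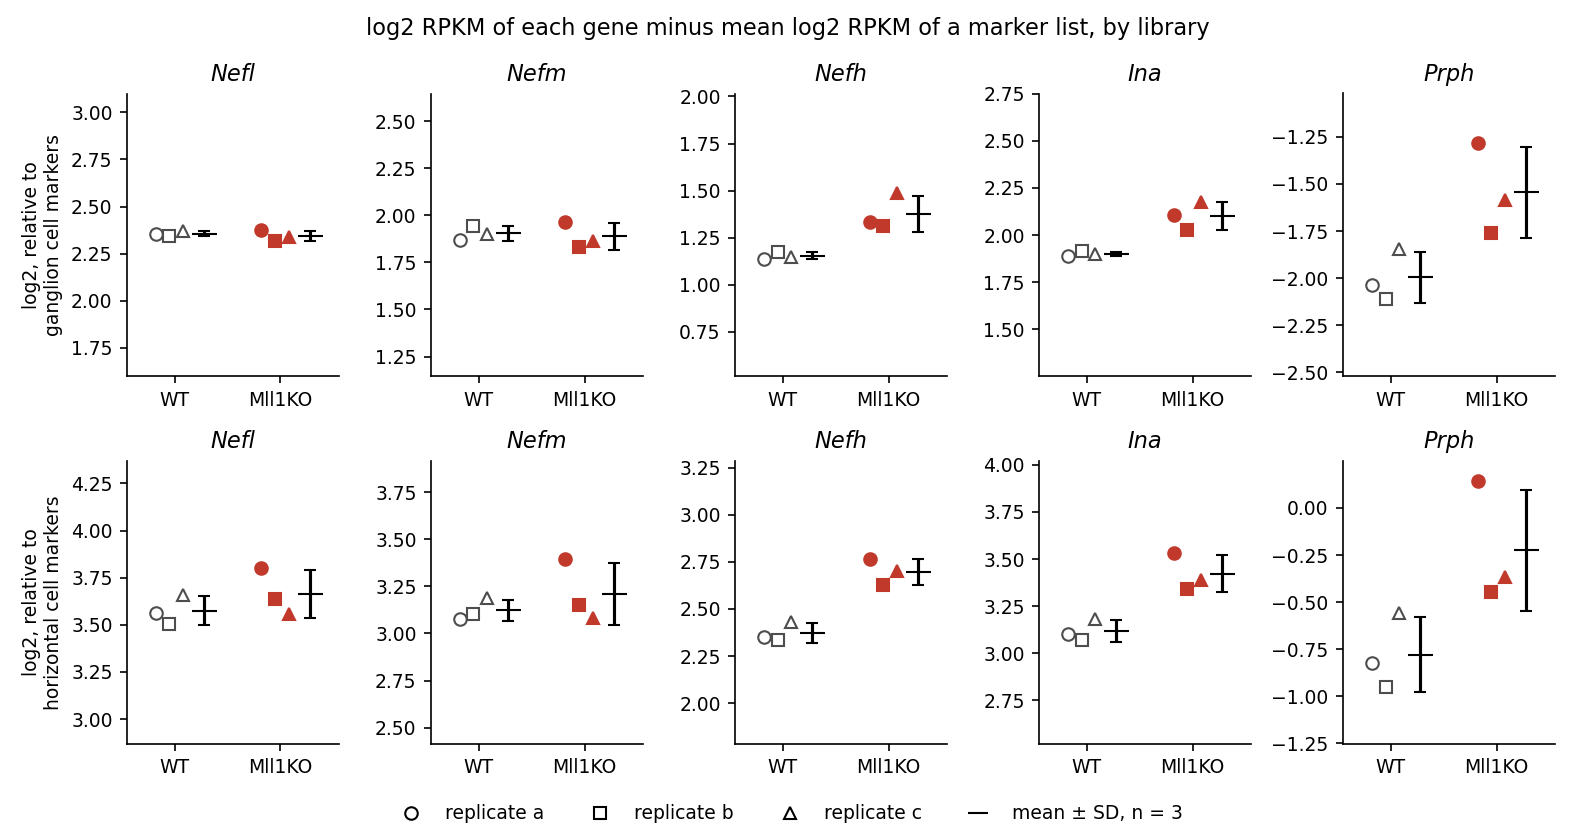
log2 RPKM of each filament gene minus the mean log2 RPKM of 15 ganglion cell markers (top) or 8 horizontal cell markers (bottom) in each library, with open grey symbols for WT, filled red symbols for *Mll1KO* and bars for mean ± SD; every panel spans the same number of log2 units. *Nefl* and *Nefm* overlap between the groups, and *Nefh*, *Ina* and *Prph* lie higher in *Mll1KO*, such as 2.03 to 2.18 against 1.89 to 1.91 for *Ina* in the top row. The markers are themselves lower in *Mll1KO*, so a gene with no change would also lie higher.

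Markers of tissue around the retina varied between libraries. The 5 listed of 10 pigment epithelium and melanocyte markers summed to 219, 115 and 328 in WT a, b and c and to 103, 223 and 108 in *Mll1KO* a, b and c, with *Ttr* the most abundant. The number called by limma was 0, but 3 without WT b, 2 without *Mll1KO* b and 3 with the equal rod sum. The only listed lens marker of 11, *Cryaa*, had an RPKM of 6.54, 6.61 and 7.51 in WT and of 32.1, 12.4 and 7.28 in *Mll1KO*, and was called by limma only without *Mll1KO* c. *Mll1KO* a thus had the highest *Cryaa*, and also the highest RPKM of all 5 filament genes within its group; whether these are related was not tested. Without *Mll1KO* a, the log2 fold changes were -0.59 for *Nefl*, -0.62 for *Nefm*, -0.32 for *Nefh* and -0.37 for *Ina*.

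The genes whose values over the 6 libraries were most like each subunit were found by the root mean square difference of log2(RPKM + 1), each gene less its WT mean. *Nefl* and *Nefm* were each other's nearest (0.035 in log2), and whether their shared bases bear on this was not tested. *Sema6a*, a transmembrane semaphorin (0.038 and 0.046), was close to both, as was *Rtn4r*, the Nogo receptor (0.048), to *Nefl* and *Calb2*, calretinin (0.039), to *Nefm*. *Calb2* had an RPKM of 242, 259 and 263 in WT and 199.5, 177 and 164 in *Mll1KO*, with *Mll1KO* a the highest of its group as for *Nefl* and *Nefm*. *Ankrd23* (0.019), *Sipa1* (0.019) and *Kcnj5* (0.022) were nearest to *Nefh*. *Ankrd23* (0.026), *Nefh* (0.030) and *Sorcs2* (0.031) were nearest to *Ina*. The genes nearest to *Prph*, *D10Wsu102e* (0.053), *Pgam2* (0.067) and *Cfp* (0.070), were farther from it, and like *Prph* had their highest value in *Mll1KO* a.

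Promoters are shown for a called and an uncalled subunit. The table of RefSeq promoters used here (GRCm38.p6) held 2 of the 5 genes, *Ina* and *Prph*, and not *Nefl*, *Nefm* and *Nefh*. The 250 bases before the start lie at chr19:47014431-47014680 for *Ina* and chr15:99054924-99055173 for *Prph*, both on the plus strand. Capitals mark matches on either strand to the core of a TATA box, TATAAA, and to a GC box, GGGCGG, whose matches here are on the minus strand.
Ina: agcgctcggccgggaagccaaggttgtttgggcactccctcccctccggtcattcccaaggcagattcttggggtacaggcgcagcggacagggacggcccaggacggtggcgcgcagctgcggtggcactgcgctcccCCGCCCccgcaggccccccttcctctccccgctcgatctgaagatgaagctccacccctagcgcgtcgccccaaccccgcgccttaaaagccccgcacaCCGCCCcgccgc
Prph: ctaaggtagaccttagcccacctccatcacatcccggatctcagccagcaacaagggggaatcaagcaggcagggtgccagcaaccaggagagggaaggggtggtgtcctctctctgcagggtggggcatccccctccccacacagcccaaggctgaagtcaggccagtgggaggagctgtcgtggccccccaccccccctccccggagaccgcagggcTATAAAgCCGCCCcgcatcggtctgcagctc
*Prph* has 1 TATAAA, starting at position -31 from the start, and 1 GGGCGG, whereas *Ina* has 0 TATAAA and 2 GGGCGG. Of 32851 promoters of this length, 12.4% hold TATAAA and 32.7% hold GGGCGG.

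The same libraries were examined for other intermediate filament genes, of which 7 of 18 were listed, 2 called lower and 3 higher. *Vim*, the vimentin that is the main filament of Müller glia, had an RPKM of 116, 115 and 118 in WT and of 79.97, 84.1 and 87.4 in *Mll1KO*. It was lower in all 3 *Mll1KO* libraries (log2 fold change -0.47, SE 0.04, limma adjusted p = 8.29e-05), close to *Nefl*, but with *Mll1KO* a lowest where *Nefl* was highest. *Gfap*, the astrocyte filament that Müller glia also make under stress, was higher, with 3.81, 4.40 and 4.16 in WT and 10.2, 8.50 and 8.42 in *Mll1KO* (0.97, SE 0.08, limma adjusted p = 4.26e-05). *Krt18*, a simple epithelial keratin, was higher (25.8, 24.3 and 29.7 against 47.8, 47.5 and 47.4; log2 fold change 0.82, SE 0.06, limma adjusted p = 3.76e-05). *Nes*, nestin of progenitors and glia, was lower by -0.21 and *Krt222* higher by 0.23 in log2, both near the threshold (limma adjusted p = 0.0377 and 0.0475), and neither was called in 5 of the 6 fits that left out 1 library; *Nes* was also not called with TMM, upper-quartile or median-of-ratios factors. *Synm* (0.04) and *Krt10* (0.02) were not called.

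Genes that act on the filaments were also measured. Of 23 kinases, phosphatases and partners of the neurofilament tail, all listed, 1 was called lower and 1 higher (median -0.02). *Mapk8*, the kinase JNK1, was lower by -0.16 and *Prkacb*, a catalytic subunit of protein kinase A, higher by 0.19 (limma adjusted p = 0.0422 and 0.0116), the former called in only 1 of the 6 fits that left out 1 library and not with TMM, upper-quartile or median-of-ratios factors, the latter not without WT b. *Cdk5r2*, the activator of Cdk5 and the most abundant of them, was not called (-0.05). Of 5 turnover and RNA-binding genes, 0 were called by limma and 0 had an unadjusted p under 0.05. Their log2 fold changes were -0.004 for *Trim2* and 0.04 for *Stub1*, both ubiquitin ligases, 0.03 for *Tardbp*, 0.14 for *Arhgef28* and 0.06 for *Sod1*, which was called without WT c. Of the plakins, which tie filaments to other cytoskeleton, 4 of 6 were listed. *Evpl* was lower (-0.31, SE 0.07, limma adjusted p = 0.00946), and *Dst* (-0.04), *Macf1* (0.03) and *Plec* (0.05) were not called.

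Motors that carry filaments along axons were listed in full, 8 of 8, with 2 called lower and 0 higher (median -0.10). *Kif5a*, the neuronal kinesin heavy chain, had an RPKM of 63.6, 62.0 and 65.6 in WT and of 60.1, 55.5 and 54.3 in *Mll1KO*. Its decrease (-0.17, limma adjusted p = 0.0281) and that of *Dync1h1*, the dynein heavy chain (-0.16, limma adjusted p = 0.0358), were smaller than those of the 4 called subunits, and that difference was not tested. Leaving out 1 library lost the call of *Kif5a* in 5 of 6 fits and of *Dync1h1* in 4 of 6. *Kif5b* (-0.12), *Kif5c* (-0.11), *Klc1* (-0.05), *Klc2* (-0.09), *Dync1i1* (0.14) and *Myo5a* (0.10) were not called. With TMM, upper-quartile and median-of-ratios factors the count became 0 lower and 2 higher: *Kif5a* and *Dync1h1* were not called, whereas *Dync1i1* (0.17 with each) and *Myo5a* (0.14 with each) were, so the calls of the motors depend on the scaling. Other cytoskeletal genes of axons, 20 of 20 listed, had 11 called lower and 0 higher (median -0.20). Among them *Stmn2*, a microtubule regulator of growing axons, was lowest (-0.42, SE 0.04, limma adjusted p = 0.000115). *Nrcam* was the called gene that changed least (-0.18, limma adjusted p = 0.0406), and *Map1b*, the most abundant, was lower by -0.24 (limma adjusted p = 0.0164). Leaving out 1 library lost the call of *Nrcam* in 5 of 6 fits and of *Map1b* in 4 of 6, *Nrcam* was also not called with TMM, upper-quartile or median-of-ratios factors, and the 11 calls fell to 7 without WT b or without *Mll1KO* c.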

How the data were processed

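RNA from 3 *Mll1KO* and 3 WT retina samples was sequenced as single-end reads. Per the labels, the authors aligned reads with STAR 2.0.4b to mm10 and counted them per gene with featureCounts 1.45; the study's methods write the build as GRCh38.76. The deposited RPKM values divide each gene's reads by its length and by the library's reads, and the authors left out weakly expressed genes. Their columns of edgeR 3.17.9 (V3.8.6 in the methods) log2 fold changes, log2 CPM, p-values and FDR were not used.

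Of 11404 lines, 65 exact repeats were dropped, and 18 symbols turned into dates were restored from gene IDs. Genotypes were compared with limma 3.58.1 (R 4.3.3, empirical Bayes with trend) on log2(RPKM + 1), with Benjamini-Hochberg adjustment over 11339 genes; the pseudocount of 1 understates changes of low genes. The fit was tested on simulated data, and the outcome is not given here. Library totals and lengths that made reads whole, within 0.01 reads, were found for 11337 genes (99.98%) and used for limma-voom and depth. Ratios and levels relative to markers were compared by two-sided exact permutation over samples. Annotation was GENCODE vM21.

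The members and lists were chosen with earlier results of these data known. Genes named are the 5 subunits, *Kmt2a*, the lists of other filaments, plakins, turnover genes and motors, the called extremes and most abundant gene of each list, neighbours, and the 3 genes nearest to each subunit; a few genes of the lists are not reported here one by one. Alternatives were other pseudocounts, scalings, limma-voom, a filter, the replicate letter as a block, and leaving out each library.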

Additional observations from a re-analysis of the deposited data

How the results depend on the processing

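*Nefl*, *Nefm*, *Nefh*, *Ina* and *Kmt2a* kept their direction and their call in all 15 alternatives. For the 4 subunits the log2 fold changes ranged from -0.84 to -0.48 (*Nefl*), -0.84 to -0.47 (*Nefm*), -0.60 to -0.25 (*Nefh*) and -0.63 to -0.27 (*Ina*), and the highest limma adjusted p was 0.0134. *Prph* was called lower (-0.32, limma adjusted p = 0.0195) when libraries were set to the same rod gene sum, and ranged over -0.21 to 0.042 when 1 library was left out; the cause was not tested beyond the shift that this scaling gives to all genes.

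Calls over all genes numbered 2643, and 9793 with the equal rod sum, 9590 of them lower. Of the calls, 62.2% were lower as deposited and 48.1%, 47.2% and 46.9% with TMM, upper-quartile and median-of-ratios factors. Leaving out 1 library gave 1704 to 2536 calls, the lowest without WT b (1704) and *Mll1KO* c (1757). Of the genes on the lists, 69 were called, and 118 with the equal rod sum. With the equal rod sum these signs turned: *Synm* -0.23, *Krt10* -0.24, *Krt222* -0.038, *Prkacb* -0.12, *Macf1* -0.28, *Plec* -0.24, *Sod1* -0.26, *Stub1* -0.27, *Tardbp* -0.27, *Arhgef28* -0.053, *Dync1i1* -0.16, *Myo5a* -0.20, *Gad1* -0.016, *Dock5* -0.013, *Ap1b1* -0.30 and *Nt5c2* -0.19. With TMM, upper-quartile and median-of-ratios factors these did: *Trim2* (0.027, 0.029, 0.029), *Pgam2* (0.021, 0.023, 0.023) and *Cnnm2* (0.029, 0.032, 0.032); *Pgam2* was 0.0031 with limma-voom. Leaving out 1 library, these crossed 0: *Krt10* -0.038 to 0.091, *Cdk5r2* -0.10 to 0.019, *Macf1* -0.012 to 0.071, *Trim2* -0.021 to 0.010, *Stub1* -0.015 to 0.085, *Tardbp* -0.00078 to 0.061, *Pgam2* -0.13 to 0.10, *Ap1b1* -0.0010 to 0.047 and *Cnnm2* -0.015 to 0.020. The causes were not tested.

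The *Nefm* to *Nefl* ratio difference ranged from -0.028 to 0.022 without single libraries; no other ratio turned. Relative to ganglion cell markers, *Nefl* and *Nefm* moved to 0.17 and 0.17 with the median of the markers, and to at most 0.023 and 0.019 without 1 marker; *Nefm* ranged from -0.056 to 0.011 without 1 library. Relative to horizontal cell markers, they were -0.036 and -0.040 with the median and -0.033 and -0.037 with summed RPKM, and *Nefm* ranged from -0.0071 to 0.15 without 1 library.

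Same-lettered libraries did not deviate together (correlations of -0.04, -0.19 and -0.01 for a, b and c over genes), and these correlations gave no sign that the letters pair the samples. Library size, however, fell from a to c in both groups. It was 23836033, 19777205 and 19323512 reads in WT and 23348923, 19855963 and 17961097 in *Mll1KO*. Whether same-lettered libraries were handled together was not tested. With the replicate letter as a replicate block, 2242 genes were called, and the 4 subunits were still called.

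Over all 15 alternatives, 55 of 929 log2 fold changes of 62 other named genes lost the call, 24 gained it and 41 changed sign.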

Other observations

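Genes of other retinal cell types were measured in the same libraries as the filament subunits, as marker lists with counts from the fit over all genes (median log2 fold change over all genes -0.03). Of 18 rod markers, all listed, 13 were called higher and 1 lower (median 0.26), and their summed RPKM was 18818, 17760.2 and 18279 in WT a, b and c and 22725, 23264 and 22542 in *Mll1KO* a, b and c. *Guca1b* had the largest increase (0.83) and *Nr2e3* was the one called lower (-0.36). Scaled to an equal rod sum, the median over all genes was -0.31.

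Of 12 Müller glia markers, 6 were called higher and 1, *Vim*, lower (median 0.21), with *Abca8a* highest (0.55) and *Glul*, glutamine synthetase, the most abundant (0.47). Of 7 astrocyte markers 5 were listed, with 2 called higher, among them *Gfap*, and 2 lower, *Slc14a1* (-0.33) and *Igf1r* (-0.21), the latter not called in 2 of the 6 fits that left out 1 library. Of 12 amacrine cell markers 11 were listed, with 2 called higher and 5 lower (median 0.07), from *Gad1* (0.30) to *Calb2* (-0.50), which was also the most abundant. Of 10 oligodendrocyte markers 3 were listed and 0 were called by limma, but 1 without *Mll1KO* a; *Cnp* was the most abundant (-0.16, limma adjusted p = 0.0735). Among ganglion cell markers *Rbpms2* had the lowest log2 fold change (-0.89), *Jam2* the highest of those called (-0.24) and *Sncg* -0.55. Among horizontal cell markers these were *Slc4a3* (-0.70) and *Sall3* (-0.36), with *Sept4* at -0.40.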
